A study of Mus musculus with 5 samples.

Results

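The genes Spry2, Spry4, Dusp6, Etv4 and Etv5 were examined by the peaks of 4 histone H3 modifications in mouse epiblast stem cells of the line EpiSC9. The 5 genes were represented by fixed windows of the mouse genome build mm9, of 40 to 120 kb each and 420 kb in all, and every peak with at least 1 bp inside a window was counted. These windows held 101 of the 156288 peaks in the 4 lists: 47 of 76772 for H3K4me1, 15 of 28941 for H3K4me3, 38 of 33600 for H3K27ac and 1 of 16975 for H3K27me3. Each mark was immunoprecipitated in 1 chromatin sample, from 5000000 crosslinked cells, so no replicate error can be given and no test was made. The read depth behind each list is unknown. All libraries came from this single line, and all of its cultures received 10 ng/ml FGF2 over a feeder layer of irradiated mouse fibroblasts. None was from cells kept without FGF2, so the lists show the chromatin state under the growth factor and not a response to it. The input library of the series was not analysed here.

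Fibroblast growth factors bind receptor tyrosine kinases and signal through RAS, RAF, MEK and the kinase ERK. Active ERK switches on genes that limit the pathway, among them the Sprouty inhibitors and dual-specificity phosphatases, as well as transcription factors of the ETS family that carry the response onward. Epiblast stem cells depend on FGF to stay in their primed state of pluripotency, and these genes are widely used as readouts of FGF-ERK signalling. Of the marks mapped, H3K4me3 lies at promoters, H3K4me1 at enhancers and beside promoters, H3K27ac at active promoters and enhancers, and H3K27me3 at genes silenced by Polycomb complexes.

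The windows carried many peaks of the active marks and 1 peak of H3K27me3. H3K27ac peaks covered 69.0 kb of the 420 kb (16.4%), against 1.45% of the genome span over the whole list. H3K4me1 covered 29.4% of the windows, against 5.52% of the span, and H3K4me3 covered 6.18%, against 1.27%. H3K27me3 covered 0.0626%, against 0.468%. The windows were placed around genes whereas the span includes gene-free regions, so these shares describe the loci and are not a test. H3K27ac was unequal between the genes. It covered 28.0 kb (28.0%) of the Etv5 window, 10.3 kb (17.1%) of the Dusp6 window, 15.9 kb (13.3%) of the Spry2 window and 12.3 kb (12.3%) of the Spry4 window, but 2.52 kb (6.29%) of the Etv4 window. H3K4me1 followed another order, with 39.5% of the Spry4 window, 39.4% of the Etv4 window, 35.4% of the Etv5 window, 24.4% of the Dusp6 window and 15.2% of the Spry2 window. The Etv4 window thus had the lowest H3K27ac coverage of the 5 and the second highest H3K4me1 coverage.

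**Figure D1:**
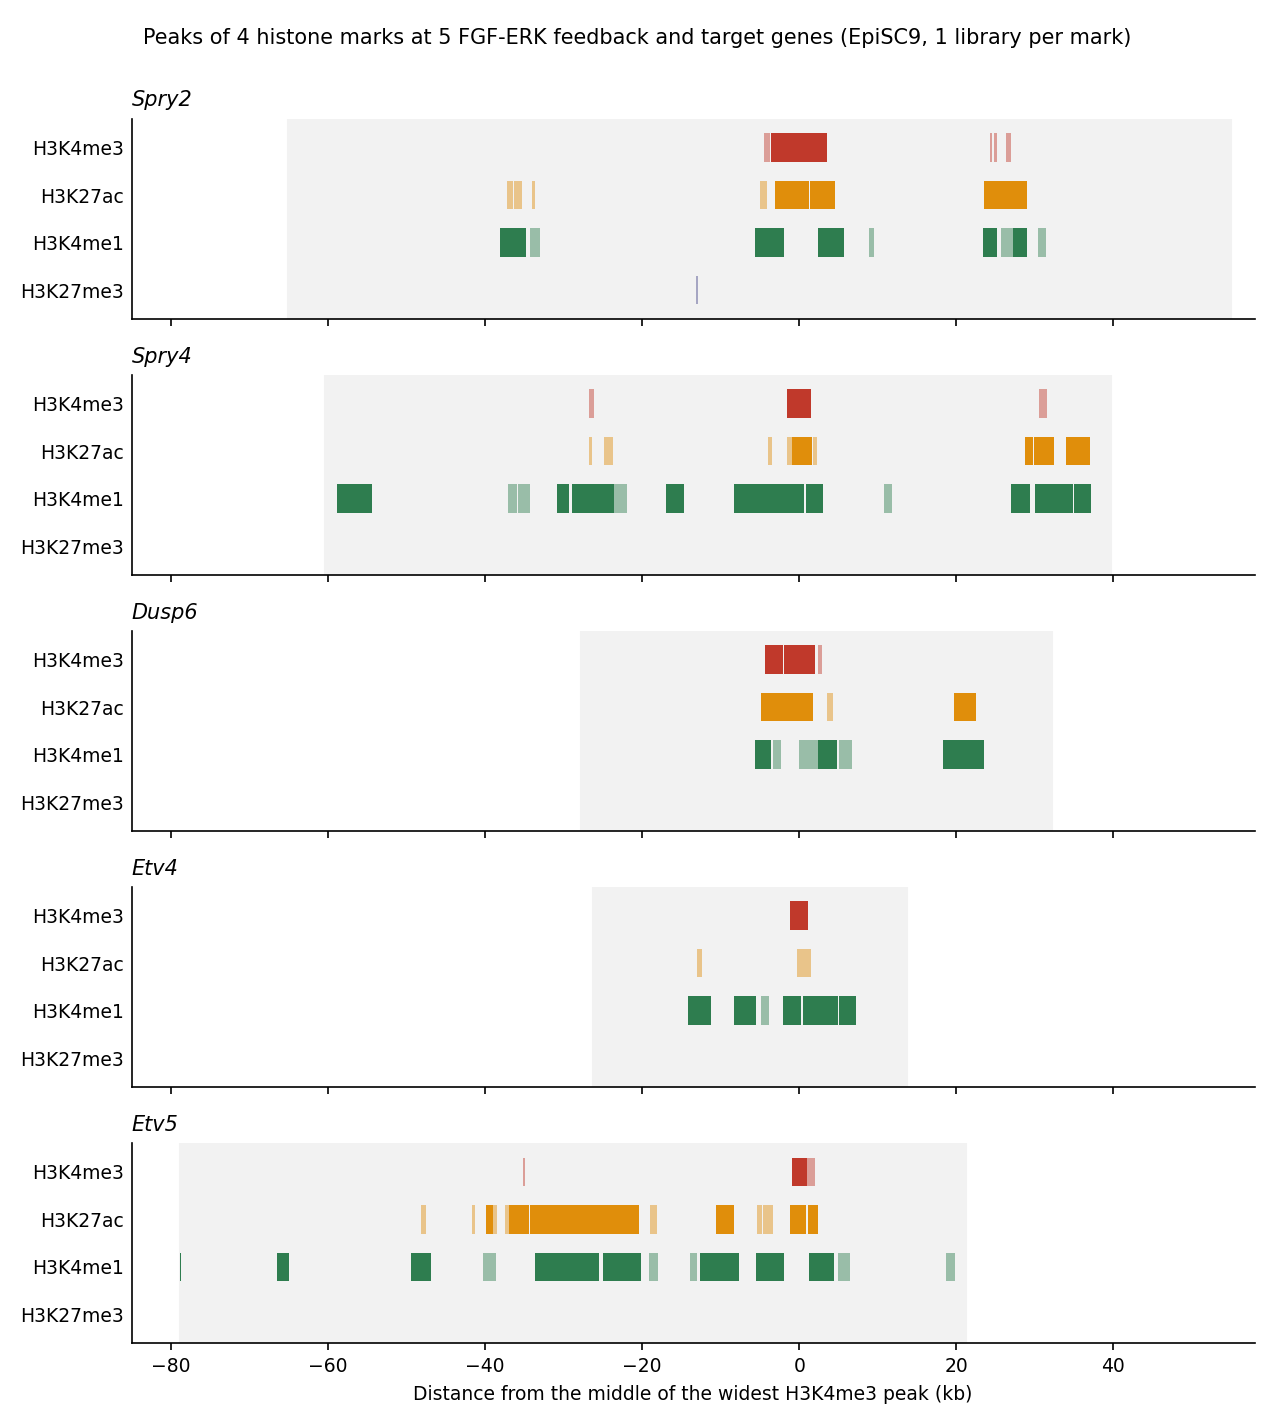
Peaks of H3K4me3, H3K27ac, H3K4me1 and H3K27me3 (rows) in the windows of the 5 genes (panels), drawn to scale by distance in kb from the middle of the widest H3K4me3 peak of each window. Grey shading marks the window, where an H3K4me1 peak that reaches past the Etv5 window is clipped; full colour marks peaks whose score reached the median of their own list and pale colour the rest, and the Etv5 panel shows the 13883 bp H3K27ac peak to the left of its H3K4me3 peak.

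In each window, the widest H3K4me3 peak was taken as the main peak and as a stand-in for the promoter, because no gene annotation of mm9 was used. At Spry2, which encodes a membrane-associated inhibitor of receptor tyrosine kinase signalling, it ran over 7203 bp on chromosome 14 at 106291446 to 106298648. Only 3 of the 28941 H3K4me3 peaks were wider. At Dusp6, which encodes the phosphatase that removes the activating phosphates from ERK in the cytoplasm, the main peak measured 3896 bp (chromosome 10 at 98725846 to 98729741) and ranked 264 by width. It was separated by 123 bp from a further H3K4me3 peak of 2233 bp. The main peak of Spry4, a second Sprouty inhibitor, measured 3048 bp (chromosome 18 at 38758840 to 38761887, rank 875). Those of the ETS factor genes were narrower, at 2352 bp for Etv4 (chromosome 11 at 101645094 to 101647445, rank 2595) and 1935 bp for Etv5 (chromosome 16 at 22437833 to 22439767, rank 4858). A further H3K4me3 peak of 930 bp lay 0.073 kb from the Etv5 main peak, and one of 770 bp lay 0.155 kb from that of Spry2. The widths therefore depend on where the peak caller ended each peak. All 5 main peaks were wider than the list median of 981 bp, which says little because each was picked as the widest of its window. The median width of all 15 H3K4me3 peaks of the windows was 930 bp.

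Each peak also has a score given by the authors' peak caller, which ranks peaks within a list and stops at about 3100 for many strong peaks. The main peaks of Spry2, Spry4, Dusp6 and Etv5 scored 3100 and that of Etv4 scored 2734, whereas 25.4% of all H3K4me3 peaks scored 3100 or more. Scores at this limit cannot be ordered among themselves. The remaining 10 H3K4me3 peaks of the windows scored between 53.5 and 2537, the highest being the neighbour of the Dusp6 main peak.

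All 5 main peaks met H3K27ac, 4 met H3K4me1 and 0 met H3K27me3. Over the whole list, 49.2% of H3K4me3 peaks met H3K27ac, 83.2% met H3K4me1 and 16.6% met H3K27me3. Wide peaks meet other peaks more often: of the 4860 H3K4me3 peaks of 1935 bp or more, the width of the narrowest main peak, 72.8% met H3K27ac. With 5 genes, a count of 5 does not stand clearly apart from that share. Nor does a count of 0 for H3K27me3 stand clearly apart from 16.6%. Of the 14236 H3K4me3 peaks that met H3K27ac, as all 5 did, 2.1% met H3K27me3.

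The strength of acetylation at the main peaks differed much more than its presence. At Dusp6, a single H3K27ac peak of 6665 bp with a score of 3100 covered 95.4% of the main peak and the whole neighbouring H3K4me3 peak. At Spry2, a 4359 bp peak scoring 3100 and a 3164 bp peak scoring 2660 together covered 91.0% of the main peak. The highest H3K27ac score on the Spry4 main peak was 1154, with 99.2% of it covered, and on that of Etv5 it was 993, with 97.9% covered. On the Etv4 main peak, the H3K27ac peaks scored 83.1 and 157, both below the H3K27ac list median of 163, and covered 62.9% of it. Among the 14236 H3K4me3 peaks that met H3K27ac, whose median top H3K27ac score was 590, 80.8% held an H3K27ac peak scoring at least as high as that of Etv4, against 36.0% for Etv5, 32.0% for Spry4 and 9.15% for Spry2 and for Dusp6. Etv4 therefore had a high-scoring H3K4me3 peak but a low-scoring acetylation signal, below the median of acetylated H3K4me3 peaks, whereas the other 4 lay above it.

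H3K4me1 was arranged around the main peaks in different ways. At Spry2, H3K4me1 peaks of 3627 and 3367 bp lay over either edge of the main peak and left 4324 bp between them free of H3K4me1, so that 40.0% of the main peak was covered. The Etv5 main peak met no H3K4me1 peak. The nearest ones began 223 bp away on the side of higher coordinates and ended 932 bp away on the other side. The H3K4me3 peak of 930 bp beside the Etv5 main peak did meet H3K4me1. Joined to that peak, the main peak would meet H3K4me1 too. H3K4me1 covered 50.2% of the Dusp6 main peak. It ran across the main peak at Etv4, with 91.3% covered, and at Spry4, with 94.9% covered, where the H3K4me1 peak of 8963 bp was among the widest 0.294% of its list. The median share covered was 81.9% over all H3K4me3 peaks that met H3K27ac and 73.3% over those of 1935 bp or more.

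H3K27me3 had 1 peak in the 420 kb of the windows. The mark is sparse in its whole list, whose rate of 0.643 peaks per 100 kb comes to 2.7 peaks in that length, so a count of 1 does not stand clearly apart. The peak lay in the Spry2 window, on chromosome 14 at 106281854 to 106282116, 9.33 kb from the main peak. It measured 263 bp and scored 60.9, below the list medians of 405 bp and 69.1, and it met no peak of another mark. The nearest H3K27me3 peak was 34.6 kb from the main peak of Etv5, 83.6 kb from that of Dusp6, 176 kb from that of Etv4 and 211 kb from that of Spry4. The median distance was 70.1 kb over all H3K4me3 peaks and 113 kb over those that met H3K27ac. Etv5 and Spry2 lay nearer to an H3K27me3 peak than the median of all H3K4me3 peaks, and the other 3 lay farther away.

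H3K27ac away from the main peaks was largest at Etv5, whose product belongs to the PEA3 group of ETS transcription factors. On chromosome 16 at 22404526 to 22418408, 19.4 kb from the main peak on the side of lower coordinates, the H3K27ac list held a peak of 13883 bp with a score of 3100. It was the widest of all 33600 H3K27ac peaks, ahead of peaks of 12742 bp and 12061 bp elsewhere, and the list median was 818 bp. Of the 38 H3K27ac peaks of the windows, 4 scored 3100, against 3.06% of the list with 3100 or more: 2 at Spry2, 1 at Dusp6 and this 1 at Etv5. H3K4me1 peaks of 8137 bp and 4920 bp, scoring 812 and 752, lay along it and ranked 1487 and 1851 by score among 76772 H3K4me1 peaks. A further H3K27ac peak of 2307 bp scoring 1237 lay 7.32 kb from the main peak on the same side, inside an H3K4me1 peak of 4996 bp. Of the H3K27ac-covered length outside the main peak, 24.8 kb lay on the side of lower coordinates and 1.24 kb on the other side. The window reaches 77.8 kb and 20.2 kb to these sides, so H3K27ac covered 31.9% of the first and 6.15% of the other. Etv5 lies on the minus strand, so lower coordinates are the side toward which it is transcribed.

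**Figure D2:**
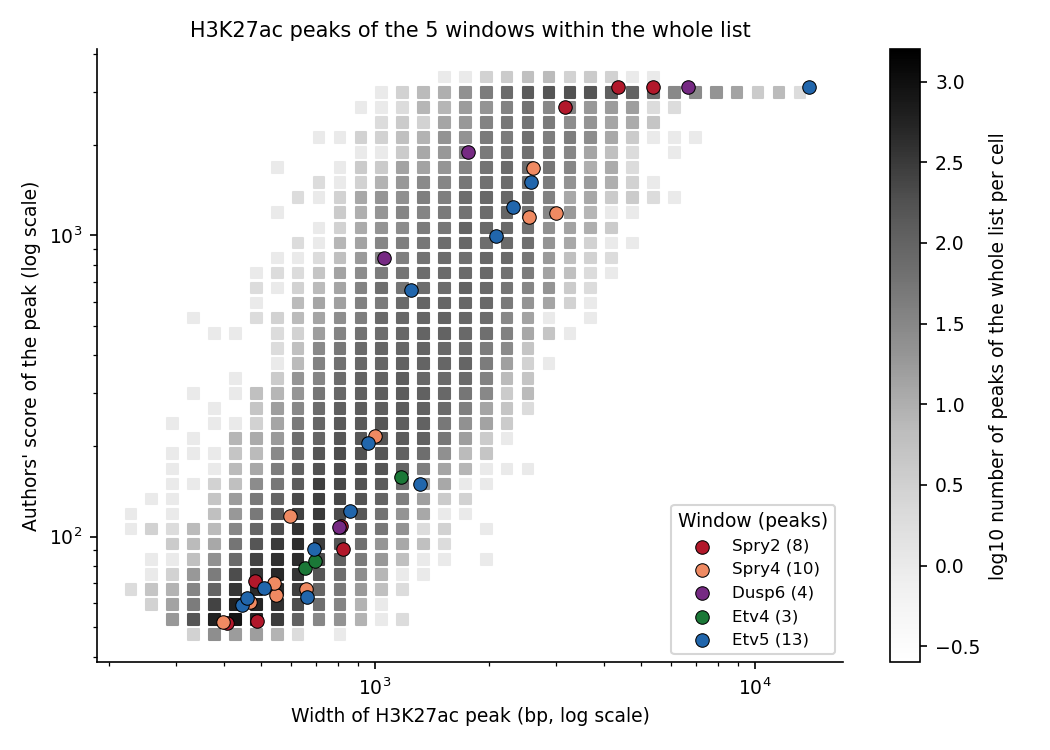
Width in bp against the authors' score, both on log scales, for the 38 H3K27ac peaks of the 5 windows (coloured points, by gene) over the whole list of 33600 (grey squares, darker where more peaks fall). The rightmost point is the 13883 bp peak of the Etv5 window, and the 3 Etv4 peaks lie at scores of 157 or less.

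The Sprouty genes and Dusp6 each had at least 1 strongly acetylated region away from the main peak. At Spry2, an H3K27ac peak of 5394 bp with a score of 3100 lay on chromosome 14 at 106318620 to 106324013, 20.0 kb from the main peak. It ranked 156 by width in its list and was wider than either H3K27ac peak on the main peak. Those lay close together, and joined they covered more, at 7.52 kb. At Spry4, peaks scoring 1676 and 1187, of 2599 and 2986 bp, lay 28.3 and 32.5 kb from the main peak, and the first scored higher than the 1154 on the main peak itself. At Dusp6, adjoining H3K27ac peaks scoring 841 and 1889 lay 17.8 kb from the main peak, inside an H3K4me1 peak of 5257 bp scoring 649 (chromosome 10 at 98746117 to 98751373). In all 3 windows these regions lay on the side of higher coordinates. This is no shared position relative to transcription, since Spry2 lies on the minus strand and Dusp6 on the plus strand. The Etv4 window held a single H3K27ac peak away from the main peak, of 654 bp and a score of 78.8. That window reaches 25.1 kb to lower and 12.55 kb to higher coordinates. It could therefore not show regions at the distances named above on the side of higher coordinates.

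To divide the acetylation by place, H3K27ac peaks were joined into regions where 1 kb or less lay between them, a distance chosen after the peaks were seen. This gave 23 regions in the 5 windows, 5 on the main peaks and 18 elsewhere. The region on the main peak held 11.9% of the H3K27ac-covered length at Etv5, 29.1% at Spry4, 47.2% at Spry2, 64.8% at Dusp6 and 74.0% at Etv4. These shares depend on the windows, of which that of Etv4 was the shortest at 40 kb. A score of 1000 or more, a limit not set beforehand, was reached by 9 of the 23 regions, against 18.8% of all regions of the list. The 23 include the 5 on the main peaks, which were picked by their H3K4me3, so the shares are not matched. Of these 9, 6 lay away from the main peaks: 2 at Etv5, 2 at Spry4, 1 at Spry2 and 1 at Dusp6. The Etv5 region on chromosome 16 at 22398897 to 22418408 covered 18.4 kb and ranked 4 by covered length among all 24347 regions. Those on the main peaks of Spry2 (7.52 kb) and Dusp6 (6.67 kb) ranked 163 and 236, and the one on the Etv4 main peak (1.86 kb) ranked 7161. The median region covered 1.24 kb.

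Several of the acetylated regions away from the main peaks carried small H3K4me3 peaks. The 5394 bp H3K27ac peak at Spry2 held 3 of them, of 260, 387 and 624 bp, with scores of 53.5, 119 and 135. At Spry4, a 962 bp H3K4me3 peak scoring 484 lay on the region 27.3 kb from the main peak, and a 623 bp peak scoring 226 met an H3K27ac peak on the other side. At Etv5, a 260 bp H3K4me3 peak scoring 68.4 lay in the region of 18.4 kb. All 6 H3K4me3 peaks more than 2 kb from a main peak met H3K27ac. In the whole list, 28.7% of the 12058 H3K4me3 peaks that scored no higher than the strongest of these 6 did so. The 6 are not independent, since 3 of them lay on the same H3K27ac peak at Spry2. The score limit was taken from these 6 peaks and the 2 kb limit was not set beforehand, so the comparison is a description only. Read from the H3K27ac side, 10 of the 23 regions of the windows met H3K4me3, close to the 44.1% of all regions of the list. Among those scoring 1000 or more it was 6 of 9, against 80.0% of the 4567 such regions of the list. Of the 18 regions away from the main peaks, 5 met H3K4me3.

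Elements with H3K4me1 and no H3K4me3 peak within 1 kb were then counted as distal elements. The 5 windows held 30 of them, of which 12 met H3K27ac (40.0%, 95% Wilson interval 24.6 to 57.7), against 18.7% (18.3 to 19.0) of the 51178 distal elements of the list. The count was uneven: 6 of 11 at Etv5, 2 of 9 at Spry4, 2 of 4 at Spry2, 1 of 2 at Dusp6 and 1 of 4 at Etv4. Without the Etv5 window it was 6 of 19 (31.6%, 15.4 to 54.0), an interval that includes the share of the whole list. The intervals cover counting alone, and neighbouring elements of a locus are not independent. The 12 acetylated elements had a median width of 2758 bp, against 1550 bp for the other 18, and a median score of 281, against 116. Acetylated distal elements were also wider over the whole list, with a median of 2088 bp against 1379 bp for the rest. Among elements of 1464 bp or more, the median width of all distal elements, 10 of 21 in the windows met H3K27ac (47.6%, 28.3 to 67.6). In the list it was 27.9% (27.4 to 28.5) of 25621. This division by width was made after the data were seen. It included the Etv5 window and was not repeated without it. None of the 30 distal elements met H3K27me3, which is rare over the whole list too, at 459 of 51178 distal elements. The distal element with the highest H3K27ac score was the 8137 bp element at Etv5 (3100, on the same H3K27ac peak as its neighbour of 4920 bp), the 5257 bp element at Dusp6 (1889), a 2153 bp element 33.5 kb from the main peak at Spry4 (1187), a 3307 bp element 31.2 kb away at Spry2 (90.8) and a 2960 bp element 10.0 kb away at Etv4 (78.8). The strongest acetylated region of Spry2 away from the main peak was not counted as distal, since its small H3K4me3 peaks lay within 1 kb.

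Strong H3K4me1 also occurred without acetylation. Of all 51178 distal elements of the list, strong or weak, 41632 met no H3K27ac. In the Spry4 window, a 4425 bp H3K4me1 peak 52.9 kb from the main peak scored 572, among the highest 4.84% of its list, and met no H3K27ac peak. At Etv4, a 2701 bp element 4.37 kb from the main peak scored 312 and likewise met none. By contrast, the widest H3K4me1 peak of the Etv4 window, of 4493 bp and a score of 578, met H3K27ac. It lay across an edge of the main peak.

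The surroundings of the main peaks were set beside those of every H3K4me3 peak by summing the H3K27ac-covered length within 25 kb to either side of the peak's middle. This length was 13.1 kb at Etv5, 10.3 kb at Dusp6, 9.76 kb at Spry2, 5.28 kb at Spry4 and 2.52 kb at Etv4, against a median of 1.83 kb over all H3K4me3 peaks and 3.40 kb over those that met H3K27ac. Of the H3K4me3 peaks that met H3K27ac, 96.0% had no more H3K27ac around them than Etv5, 92.0% no more than Dusp6, 90.8% no more than Spry2, 70.5% no more than Spry4 and 35.9% no more than Etv4. For H3K4me1 within the same distance, Etv5 had 21.4 kb, Etv4 18.2 kb, Spry4 17.6 kb, Dusp6 14.6 kb and Spry2 9.28 kb, against a median of 8.20 kb. Etv4 thus stood above the median of acetylated H3K4me3 peaks for H3K4me1 and below it for H3K27ac. The strongest distant regions of Spry4 began more than 25 kb from the edge of its main peak and fell outside this distance.

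**Figure D3:**
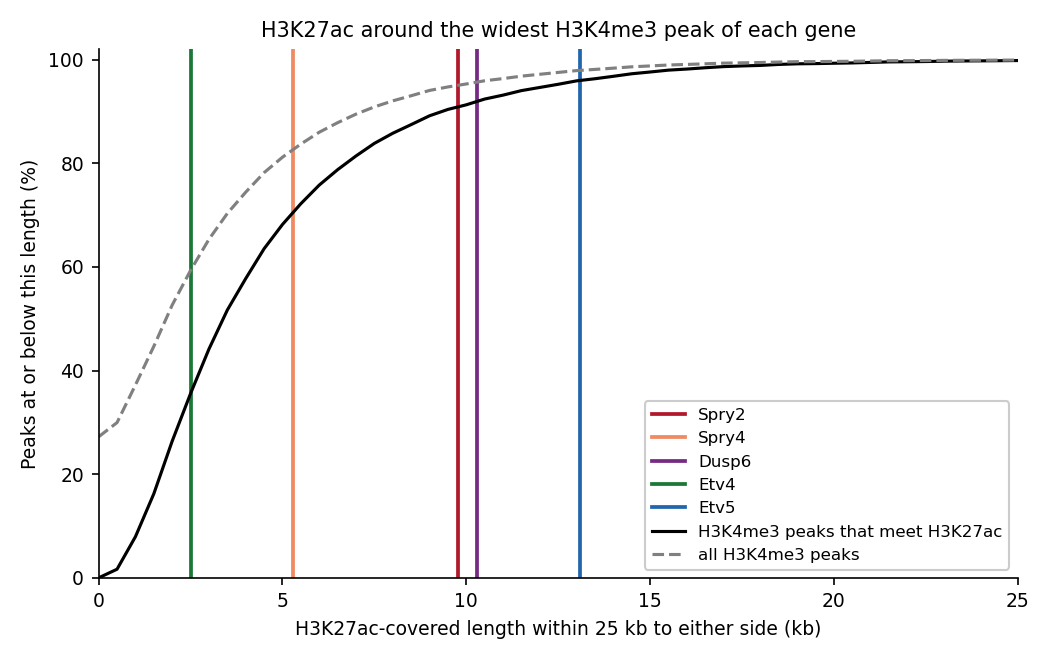
Cumulative share of H3K4me3 peaks (y axis, percent) by the H3K27ac-covered length within 25 kb to either side (x axis, kb), with a vertical line for the main peak of each gene, a solid curve for H3K4me3 peaks that met H3K27ac and a dashed curve for all H3K4me3 peaks. The line of Etv4 at 2.52 kb crosses the solid curve at 35.9%, and that of Etv5 at 13.1 kb crosses it at 96.0%.

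Joining H3K27ac peaks with at most 12 kb and 500 bp between them gave 16953 clusters with a median covered length of 1.52 kb. At Etv5, all 13 H3K27ac peaks of the window fell into 1 cluster that spanned 50.5 kb (chromosome 16 at 22390608 to 22441141) and covered 28.0 kb, the main peak included. It ranked 17 by covered length and was the only cluster of the 5 loci inside the top 1%, which began at 13.7 kb. When H3K27ac peaks within 1 kb of any H3K4me3 peak were left out, which removed the 13883 bp peak, the highest Etv5 cluster covered 5.17 kb and ranked 430 of 10674, outside the top 1%. Among all 16953 clusters, the highest ranking one was 529 at Spry2 (8.34 kb) and 653 at Dusp6 (7.47 kb). It was 862 at Spry4 (6.59 kb) and 4545 at Etv4 (2.52 kb). At Spry4 that cluster was the distant group of peaks and did not include the main peak.

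**Figure D4:**
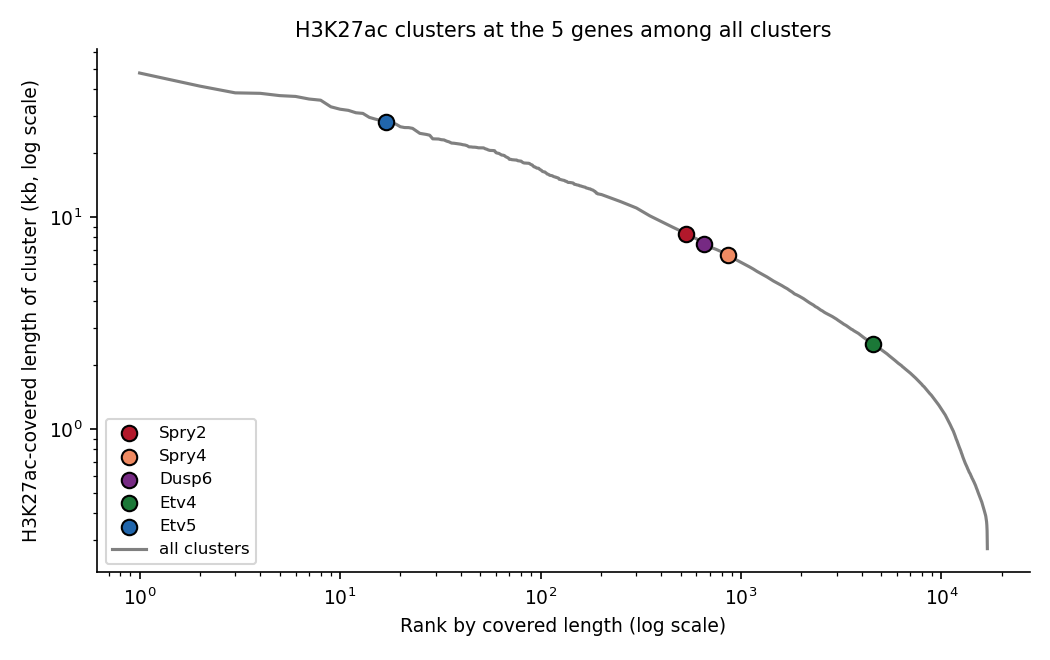
H3K27ac-covered length in kb of each cluster of joined peaks, against its rank, both on log scales. Grey is all 16953 clusters and coloured points are the highest ranking cluster of each window, from rank 17 at Etv5 to rank 4545 at Etv4.

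Which gene a distant region belongs to is not known from these lists. In the RefSeq gene table of another build (GRCm38.p6), used here for the order of genes alone, the nearest protein-coding neighbours were Ndfip2 and Trim52 for Spry2, Ndfip1 and Arhgap26 for Spry4, Galnt4 and Csl for Dusp6, Dhx8 and Meox1 for Etv4, and Tra2b and Dgkg for Etv5. Fibroblast feeder cells were present in the culture, and their share in the chromatin and its part in these peaks was not tested.

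Promoter sequences were taken from RefSeq (GRCm38.p6) for Spry2, Dusp6 and Etv5, to show the DNA at the annotated starts of genes in these marked loci; the promoters of Spry4 and Etv4 were not analysed here. Their positions are on that build and were not placed on the mm9 peaks. Printed below are the 250 bases before each annotated start, 5′ to 3′ on the strand of the gene, with matches to TGAATG, TCAATGAA and TCAATGGA or their reverse complements in capitals. The Spry2 sequence lies on the minus strand at chr14:105896820-105897069, that of Dusp6 on the plus strand at chr10:99262981-99263230, and those of Etv5, which has 2 entries, on the minus strand at chr16:22439571-22439820 and chr16:22438369-22438618.
Spry2: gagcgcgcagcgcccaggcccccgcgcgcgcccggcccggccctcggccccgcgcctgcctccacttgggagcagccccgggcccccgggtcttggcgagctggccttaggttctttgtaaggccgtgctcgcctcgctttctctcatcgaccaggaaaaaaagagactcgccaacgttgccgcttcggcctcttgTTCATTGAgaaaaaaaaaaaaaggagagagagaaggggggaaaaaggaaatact
Dusp6: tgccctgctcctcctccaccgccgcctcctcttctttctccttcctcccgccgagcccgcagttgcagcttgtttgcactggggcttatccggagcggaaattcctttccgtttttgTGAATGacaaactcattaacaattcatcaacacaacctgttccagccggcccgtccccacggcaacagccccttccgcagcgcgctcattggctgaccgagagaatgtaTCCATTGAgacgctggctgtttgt
Etv5, first entry: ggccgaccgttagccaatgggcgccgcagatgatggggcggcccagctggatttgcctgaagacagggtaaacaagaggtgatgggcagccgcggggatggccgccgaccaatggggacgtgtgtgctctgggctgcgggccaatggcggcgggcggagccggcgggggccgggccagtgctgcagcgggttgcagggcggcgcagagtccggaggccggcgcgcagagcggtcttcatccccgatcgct
Etv5, second entry: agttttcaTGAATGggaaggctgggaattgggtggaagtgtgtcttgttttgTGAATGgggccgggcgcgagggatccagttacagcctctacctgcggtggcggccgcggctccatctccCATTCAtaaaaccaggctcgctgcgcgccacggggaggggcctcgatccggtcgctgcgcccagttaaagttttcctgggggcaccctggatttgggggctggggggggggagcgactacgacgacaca

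Over 300 bases, 250 before and 50 after the start, these promoters held more CpG than the median promoter. Of all promoters, 5.58% held at least as many CpG as the first Etv5 entry and 14.2% as many as Spry2. For Dusp6 and for the second Etv5 entry it was 28.1%. The first Etv5 entry held 37 CpG and 74.0% G and C, that of Spry2 28 and 62.7%, that of Dusp6 19 and 57.3% and the second Etv5 entry 19 and 60.0%, against medians of 7 and 52.7% over the 32851 promoters of the table. Motifs were searched on both strands of the same 300 bases. CCGGAA, a core bound by ETS factors, matched once in Spry2, from base 34 of the transcript, and in 14.9% of all promoters. Capicua is a repressor that ERK signalling relieves and that is known to act on Etv4 and Etv5. Its octamer has 4 forms, of which TCAATGAA and TCAATGGA were added to the search after the letters were seen. TCAATGAA (0.749% of all promoters) matched once in Spry2, on the opposite strand, 54 bases before the start. TCAATGGA (0.670%) matched in Dusp6 on the opposite strand, 24 bases before the start and again from base 2 of the transcript. The other forms, TGAATGAA (1.30%) and TGAATGGA (1.21%), matched in none of the 4 promoters, and neither Etv5 entry held any form. At least 1 of the 4 forms occurred in 3.84% of all promoters. No match was found to TGACGTCA (the cyclic AMP response element, 1.79%) or TGANTCA (AP-1, 7.81%). The shorter TGAATG, which TGAATGAA and TGAATGGA contain, was likewise chosen after the letters were seen. It occurred once in Dusp6, 133 bases before the start, and 3 times in the second Etv5 entry, 242, 198 and 129 bases before the start. Of all promoters, 12.7% held it at least once and 0.17% held it 3 or more times. A match describes the letters in this stretch, and factor binding was not measured.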

How the data were processed

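The authors deposited 1 peak list per mark, each an mm9 interval and its score; groups follow the antibody in the labels. Bowtie 0.12.9, MACS 1.4 and Cufflinks are named in the submitters' processing notes without role or order. Peak names begin with MACS; the control, duplicate handling, threshold and any pooling: not given in the sources used here. The lowest score was 50. No reads were counted, so depth is unknown. A deeper library gives more and wider peaks, so marks were not ranked against each other.

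Windows came from a fixed list, and the members and gene lists were chosen with earlier results of these data known. Intervals met when they shared 1 bp or more. Named peaks were, per gene, the main H3K4me3 peak, the widest H3K27ac and H3K4me1 peaks, the distal element with the highest H3K27ac score and every H3K27me3 peak; other peaks were chosen after their values were seen. No test was made. Shares of distal elements carry 95% Wilson intervals; other shares are printed without one. Python 3.11.15, numpy 2.4.6, pandas 2.3.3, scipy 1.17.1 and matplotlib 3.10.9 were used, and overlap code was tested on simulated data. Cell type markers and other FGF pathway genes were not analysed, because no mm9 annotation was used.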

Additional observations from a re-analysis of the deposited data

How the results depend on the processing

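With 1 library per mark the depth is unknown, leaving out a replicate was not possible, and all values describe single libraries. No paired analysis was possible because each mark had a single library and no test was made. The peak counts in the windows fell among peaks at or above the list median score, to 30 for H3K4me1, 6 for H3K4me3, 16 for H3K27ac and 0 for H3K27me3. With scores of 100 or more, H3K27ac fell to 22 and H3K27me3 to 0. Joining peaks within 1 kb gave 28 for H3K4me1 and 23 for H3K27ac. The main peaks with H3K27ac numbered 5, or 4 at or above the median score, where Etv4 was lost. Acetylated distal elements numbered 8 of 18 with no H3K4me3 within 5 kb and 14 of 32 with overlap alone excluded. The share of all H3K4me3 peaks with no more H3K27ac around them than the gene was 98.1% for Spry2, 88.4% for Spry4, 97.4% for Dusp6, 64.2% for Etv4 and 96.8% for Etv5 within 10 kb, and 96.0%, 91.4%, 91.1%, 60.4% and 99.6% in the same order within 50 kb, against 95.01%, 82.6%, 95.7%, 59.6% and 97.9% within 25 kb. Ranks of clusters were 286 for Spry2, 526 for Spry4, 373 for Dusp6 and 7189 for Etv4 of 20733 with joining within 5 kb, where Etv5 ranked 15. Without H3K27ac peaks near H3K4me3, Spry2 ranked 2188, Etv4 7306 and Etv5 430 of 10674. The 13883 bp H3K27ac peak of Etv5 was left out there because it lay 573 bp from the H3K4me3 peak scoring 68.4. When H3K4me3 peaks below the median score were disregarded, a setting added after the data were examined, Etv5 ranked 12, Spry4 363 and Etv4 8257 of 11797. In all, 37 of 64 values under other settings stayed within 1.5 times the main count or rank, or within the interval of the main share. Some of these could hardly move, such as shares over autosomes only and stricter overlaps for a count of 0, so the tally is no measure of stability.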
